A study of Mus musculus with 11 samples.

Results

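Expression of *Me1*, *Idh1*, *G6pdx* and *Mpc2* was examined in tumor cell lines with and without Cpt1a, the enzyme that admits long-chain fatty acids to mitochondrial oxidation. The 4 genes were taken by their symbols from a table of 4461 genes, and each was present once. The lines came from mammary tumors of female MMTV-NIC mice, excised at 8 weeks post-palpation and grown without treatment. In this model the mammary MMTV promoter drives an activated ErbB2 and Cre from the same transcript, so that cells expressing the oncogene also express the recombinase. The groups were 4 NIC/conditional Cpt1a KO lines (KO_1922, KO_1925, KO_2768 and KO_4258, genotype NIC/Cpt1a L/L) and 2 NIC/wild-type lines (WT_5257 and WT_8905, genotype NIC/Cpt1a+/+), called knockout and wild-type lines below. Each carried the MMTV-NIC transgene. The methods call the tumor-derived lines independent and do not say whether each came from a separate animal. Every line was sequenced in duplicate except KO_2768, for which 1 library was used here, giving 7 and 4 libraries. The line was the replicate throughout, since duplicate libraries of a line speak only for that line. The sample titles word the allele status of the groups the opposite way to the genotype field and to the KO and WT in the line names. The genotype field was followed. *Cpt1a* itself was not analysed here, so the labels could not be checked against the targeted gene in these files; per the labels, the cells were authenticated by PCR genotyping and by immunoblot of Cpt1a.

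NADPH is the reductant that cells spend on fatty acid synthesis and on keeping glutathione and thioredoxin reduced. In the cytosol it is made mainly by glucose-6-phosphate dehydrogenase (*G6pdx*), which opens the oxidative branch of the pentose phosphate pathway, by malic enzyme 1 (*Me1*), which converts malate to pyruvate, and by isocitrate dehydrogenase 1 (*Idh1*), which converts isocitrate to 2-oxoglutarate. Pyruvate reaches the mitochondrial matrix through a carrier of the inner membrane built from the Mpc1 and Mpc2 proteins, and there feeds acetyl-CoA and oxaloacetate into the TCA cycle. Fatty acid oxidation supplies the same acetyl-CoA, and citrate and malate exported from the cycle are what *Idh1* and *Me1* draw on. How the supply of pyruvate and of NADPH stands when fatty acid oxidation is blocked is among the questions the study asks of these lines. *Mpc1* was not analysed here.

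The start regions of the 4 genes are shown because Nrf2, the transcription factor of the antioxidant response, is known to act on NADPH-producing genes through antioxidant response elements, and because Srebp proteins act on lipid genes through sterol regulatory elements. The sequences were taken from RefSeq (GRCm38.p6), run from 250 bases before to 50 bases after the annotated start, and are written along the gene's own strand. All distances are counted from this RefSeq start. The gene coordinates given further below come from another annotation, with other starts. By those coordinates the whole *G6pdx* window and most of the *Mpc2* window lie inside the gene. Capitals mark the letters of 4 motifs searched on both strands, namely the antioxidant response element core TGACNNNGC, the sterol regulatory element TCACNCCAC, the E-box CACGTG and the NF-Y box CCAAT. The core TGACNNNGC can also hold the AP-1 letters TGACTCA.
Me1 (chr9:86695865-86696164, minus strand): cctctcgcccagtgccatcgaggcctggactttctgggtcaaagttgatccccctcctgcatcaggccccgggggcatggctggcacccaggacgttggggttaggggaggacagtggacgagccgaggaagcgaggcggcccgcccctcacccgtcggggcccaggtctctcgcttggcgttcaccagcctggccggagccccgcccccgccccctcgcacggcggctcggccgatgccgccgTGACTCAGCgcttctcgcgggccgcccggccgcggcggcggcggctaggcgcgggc
Idh1 (chr1:65186430-65186729, minus strand): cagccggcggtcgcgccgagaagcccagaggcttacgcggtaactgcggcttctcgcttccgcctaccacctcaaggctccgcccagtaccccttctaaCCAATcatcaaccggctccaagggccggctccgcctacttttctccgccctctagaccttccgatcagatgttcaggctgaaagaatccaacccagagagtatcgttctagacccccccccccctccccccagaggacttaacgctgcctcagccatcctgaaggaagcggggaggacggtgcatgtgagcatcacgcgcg
G6pdx (chrX:74428831-74429130, minus strand): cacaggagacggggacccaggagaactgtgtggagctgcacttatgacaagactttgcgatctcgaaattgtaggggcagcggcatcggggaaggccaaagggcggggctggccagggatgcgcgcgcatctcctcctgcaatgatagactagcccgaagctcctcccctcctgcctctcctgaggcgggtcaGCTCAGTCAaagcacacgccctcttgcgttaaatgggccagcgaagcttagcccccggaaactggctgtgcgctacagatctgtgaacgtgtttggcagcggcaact
Mpc2 (chr1:165461010-165461309, plus strand): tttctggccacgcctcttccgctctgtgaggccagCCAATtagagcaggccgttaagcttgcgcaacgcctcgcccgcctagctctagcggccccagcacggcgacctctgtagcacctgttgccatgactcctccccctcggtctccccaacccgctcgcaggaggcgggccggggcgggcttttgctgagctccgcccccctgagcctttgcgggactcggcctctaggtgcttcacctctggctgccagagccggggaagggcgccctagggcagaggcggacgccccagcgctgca

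*Me1* held the core letters TGACTCAGC on its own strand, beginning 6 bases before the start, and these include the AP-1 letters. *G6pdx* held TGACTGAGC on the opposite strand. Along the gene's own strand this stretch reads GCTCAGTCA and begins 57 bases before the start. The core occurred in 12.4% of all 32851 promoters of the table, and the *Idh1* and *Mpc2* promoters had no match to it in this window. *Idh1* and *Mpc2* each held a CCAAT box, 151 and 215 bases before the start, a run found in 37.4% of all promoters. The sterol element and the E-box, present in 1.24% and 7.15% of all promoters, had no match in these 4 windows. The table gives *Me1* and *Idh1* a further start each, and neither of those windows held the core. A match describes letters and not binding, and no binding was measured here.

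*Me1* lay lower in every knockout line than in either wild-type line. It lies on chromosome 9 from 86581371 to 86695953, minus strand (GRCm38, ENSMUSG00000032418). Levels are given as FPKM, fragments scaled to transcript length and library size, which allows genes of different lengths to be set side by side. *Me1* stood at 40.8 and 39.2 FPKM in the KO_1922 libraries, 35.7 and 33.3 in KO_1925, 53.2 in KO_2768, 66.3 and 68.8 in KO_4258, 105 and 104 in WT_5257, and 109 and 103 in WT_8905. The highest knockout library thus stood well under the lowest wild-type library, and no libraries of the 2 genotypes overlapped. The mean FPKM was 48.8 ± 14.7 (SD, n = 4 lines) in knockout and 105 ± 1.21 (SD, n = 2 lines) in wild-type lines. In the edgeR quasi-likelihood fit on counts summed by line, the log2 difference of knockout from wild-type lines was -1.17 (standard error 0.31, 95% interval -1.93 to -0.40), 2.24-fold lower. The edgeR p was 0.00984 and its Benjamini-Hochberg adjusted p was 0.0648, so that *Me1* did not pass the threshold of 0.05.

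*Idh1* was also lower in all 4 knockout lines, but by amounts that differed widely from line to line. It lies on chromosome 1 from 65158616 to 65186500, minus strand (ENSMUSG00000025950). Its FPKM was 33.5 and 33.2 in the KO_1922 libraries, 37.6 and 38.7 in KO_1925, 78.3 in KO_2768, 57.3 and 59.9 in KO_4258, 90.1 and 87.7 in WT_5257, and 94.0 and 86.7 in WT_8905. KO_1922 and KO_1925 stood far below the wild-type lines and KO_2768 only slightly below them. The means were 52.1 ± 20.6 FPKM (SD, n = 4 lines) and 89.6 ± 1.11 FPKM (SD, n = 2 lines). The log2 difference was -0.84 (standard error 0.38, 95% interval -1.77 to 0.09), with an edgeR p of 0.0689 and an adjusted p of 0.111, and did not pass the test.

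*G6pdx* was the only member with a higher mean in the knockout lines. It lies on chromosome X from 74409483 to 74429194, minus strand (ENSMUSG00000031400). The KO_1922 libraries held 71.8 and 70.2 FPKM, those of KO_1925 held 104 and 103, KO_2768 held 64.2, those of KO_4258 held 89.2 and 97.3, those of WT_5257 held 43.9 and 41.1, and those of WT_8905 held 63.0 and 65.0. KO_1925 and KO_4258 were clearly highest and WT_5257 lowest, while KO_2768 and WT_8905 could not be separated. The means were 82.9 ± 18.4 FPKM (SD, n = 4 lines) and 53.2 ± 15.2 FPKM (SD, n = 2 lines). In the TMM-scaled counts used for the test, 3 of the 4 knockout lines lay above both wild-type lines, KO_2768 having 167 and WT_8905 having 175 CPM (counts scaled to library size). The log2 difference was 0.58 (standard error 0.30, 95% interval -0.15 to 1.31), with an edgeR p of 0.101 and an adjusted p of 0.134. The difference was 0.92 without WT_8905 and 0.21 without WT_5257, so its size rested on which wild-type line was used.

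*Mpc2*, the carrier subunit, had lower levels in 3 of the 4 knockout lines than in either wild-type line. It lies on chromosome 1 from 165461037 to 165481214, plus strand (ENSMUSG00000026568). Its FPKM was 12.7 and 14.3 in the KO_1922 libraries, 12.5 and 11.8 in KO_1925, 12.5 in KO_2768, 18.0 and 18.6 in KO_4258, 21.9 and 24.5 in WT_5257, and 18.7 and 17.6 in WT_8905. KO_4258 overlapped WT_8905, and the other knockout lines lay close together beneath them. The means were 14.1 ± 2.84 FPKM (SD, n = 4 lines) and 20.7 ± 3.66 FPKM (SD, n = 2 lines). The log2 difference was -0.61 (standard error 0.26, 95% interval -1.24 to 0.01), with an edgeR p of 0.0541 and an adjusted p of 0.101. No knockout library held as much *Mpc2* messenger RNA as either library of WT_5257.

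**Figure D1:**
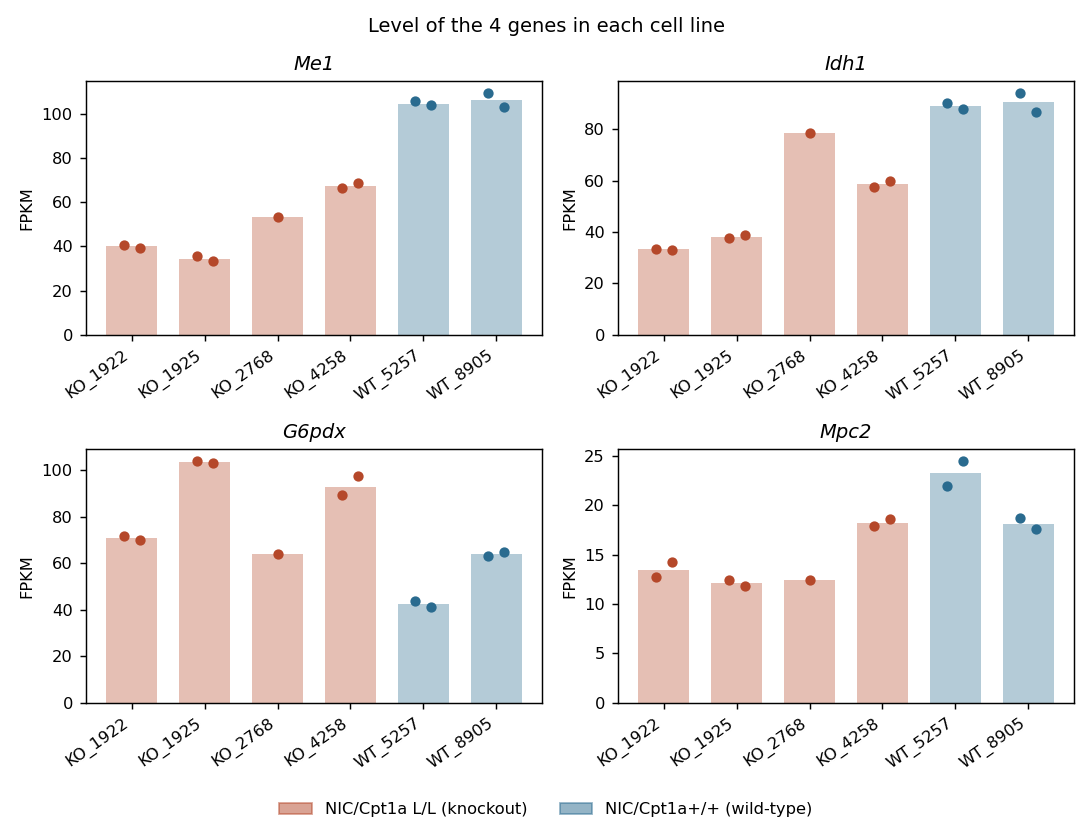
FPKM (y axis) of each gene in the 6 lines (x axis), knockout in red and wild-type in blue; points are libraries and bars are the level of the line. Me1 and Idh1 lie below both wild-type lines in all 4 knockout lines, whereas G6pdx of KO_2768 sits level with WT_8905 (64.2 and 64.0) and Mpc2 of KO_4258 does so as well (18.3 and 18.1).

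None of the 4 genes passed the test by line, in which 1.66% of the 4268 genes tested were raised and 3.47% lowered at an adjusted p under 0.05. At an unadjusted edgeR p under 0.05, *Me1* was the only member called, against 21.5% of genes raised and 29% lowered. The table lists only genes that the authors had called different between the genotypes, so these shares do not describe the whole transcriptome and the adjusted p-values are too small. The TMM factors and the spread between lines were also estimated from these genes alone. The log2 differences, standard errors and unadjusted p-values therefore rest on that selection too. With the number of tests set to the 49997 genes of the RefSeq table, an upper bound, the adjusted p of *Me1* was 0.76 and that of each of the other 3 genes was 1. Lying below both wild-type lines in all 4 knockout lines, as *Me1* and *Idh1* did, was true of 38.2% of the genes tested, and 35.1% lay above both in all 4, so neither pattern set the members apart. When each library was entered as a separate sample, all 4 genes passed, with adjusted p between 0.000888 for *Me1* and 0.0212 for *G6pdx*, but in that fit 47.5% of genes were raised and 42.6% lowered, and duplicates of a line were counted as independent. The median log2 difference of all genes tested was 0.49 and 58.6% of them were positive. The difference of *G6pdx* was thus close to this median, and those of *Me1*, *Idh1* and *Mpc2* lay on the other side of 0, with the rest of the negative genes. Listed genes lie on both sides of 0, so the median does not stand for a typical one.

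**Figure D2:**
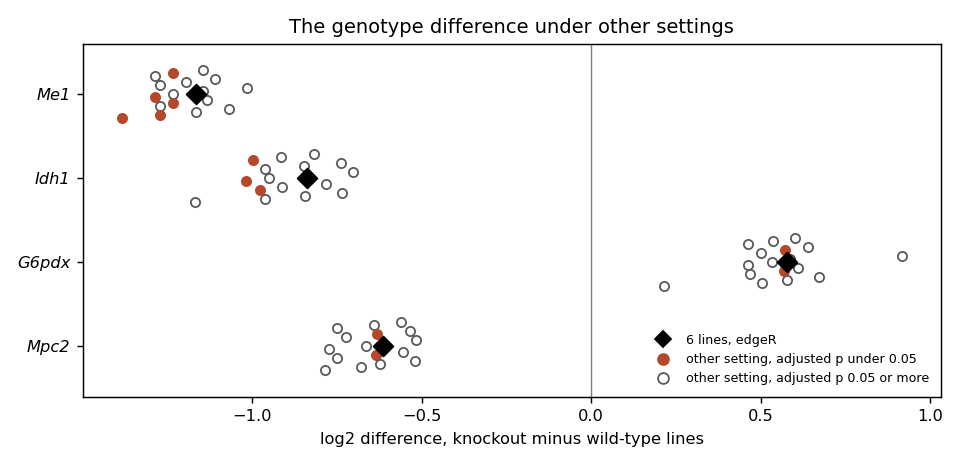
log2 difference between the genotypes (x axis) of each gene (y axis) in the fit on 6 lines (black diamond) and in 17 other settings (circles), filled where the adjusted p was under 0.05. No setting moved a gene across 0, and Me1, with 5 filled circles, passed most often. The settings reuse the same libraries for genes already called different, so a kept side of 0 is no separate evidence.

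The 4 genes also varied among lines of the same genotype. Duplicate libraries differed in FPKM by 1.73% to 7.0% for *Me1*, 1.15% to 8.33% for *Idh1*, 0.92% to 9.17% for *G6pdx* and 3.79% to 12.5% for *Mpc2*, over the 5 lines with both libraries. Across the 4 knockout lines the highest level was 1.95 times the lowest for *Me1*, 2.35 times for *Idh1*, 1.61 times for *G6pdx* and 1.503 times for *Mpc2*. Set against the spread between duplicate libraries, all 4 genes differed among the knockout lines by edgeR's quasi-likelihood test of library counts, with adjusted p of 1.26e-19 for *Me1*, 1.44e-20 for *Idh1*, 5.92e-14 for *G6pdx* and 2.11e-10 for *Mpc2*. This test covers library noise within a line only, KO_2768 has no duplicate, and 90.9% of the genes tested passed, so the p-values do not set the members apart. The log2 range of *Me1* (1.04) and *Idh1* (1.28) was slightly above and that of *G6pdx* (0.68) and *Mpc2* (0.66) below the median range of all genes, 0.98.

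Between the wild-type lines a difference was detected for *G6pdx* and *Mpc2*, and none for *Me1* and *Idh1*. WT_8905 exceeded WT_5257 in *G6pdx* by a log2 difference of 0.64 (95% interval 0.53 to 0.75, edgeR adjusted p = 1.84e-12) and fell short of it in *Mpc2* by -0.31 (-0.46 to -0.16, edgeR adjusted p = 0.000288). For *Me1* the difference was 0.07 (-0.03 to 0.17, edgeR adjusted p = 0.203) and for *Idh1* it was 0.07 (-0.03 to 0.18, edgeR adjusted p = 0.212). Of all genes tested, 65.6% differed between these lines. Read from high to low, *Me1* ran WT_8905, WT_5257, KO_4258, KO_2768, KO_1922 and KO_1925, with overlapping libraries only for the wild-type lines. *Idh1* ran WT_8905, WT_5257, KO_2768, KO_4258, KO_1925 and KO_1922, again with overlap only for the wild-type lines. *G6pdx* ran KO_1925, KO_4258, KO_1922, KO_2768, WT_8905 and WT_5257, and *Mpc2* ran WT_5257, KO_4258, WT_8905, KO_1922, KO_2768 and KO_1925. KO_2768 and WT_8905 overlapped for *G6pdx*, and KO_4258 and WT_8905 did so for *Mpc2*. Among knockout lines the order differed between genes, *G6pdx* being highest in the line where *Me1* was lowest.

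*G6pdx* took a larger share of the summed level of the 3 NADPH-producing enzymes in every knockout line than in either wild-type line. *Me1* was the most abundant of them in both wild-type lines, with 44.3% and 40.8% of their summed FPKM, followed by *Idh1* with 37.7% and 34.7% and *G6pdx* with 18.0% and 24.6%. In the knockout lines *G6pdx* held 49.2% in KO_1922, 58.8% in KO_1925, 32.8% in KO_2768 and 42.5% in KO_4258, and was the most abundant in all but KO_2768, where *Idh1* held 40.01%. The *G6pdx* level divided by the *Me1* level was 1.77, 2.999, 1.21 and 1.38 in KO_1922, KO_1925, KO_2768 and KO_4258, against 0.41 in WT_5257 and 0.60 in WT_8905. The ratio, which does not depend on the scaling of libraries, was thus above 1 in every knockout line and below 1 in both wild-type lines. The sum itself was 144 to 219 FPKM in the knockout lines and 236 and 261 FPKM in the wild-type lines. *G6pdx* divided by *Mpc2* was 5.08 to 8.52 in knockout lines and 1.82 and 3.53 in wild-type lines. These ratios combine genes chosen with their values known and are given as a description with no test. They set the only member with a higher mean in knockout lines against members with lower means. All had been called different by the authors, which favours separated ratios, and the share of other gene pairs that separate was not computed. FPKM also depends on the gene length used, 2652 bases for *G6pdx* and 3292 for *Me1*, so a ratio of 1 has no meaning of its own.

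**Figure D3:**
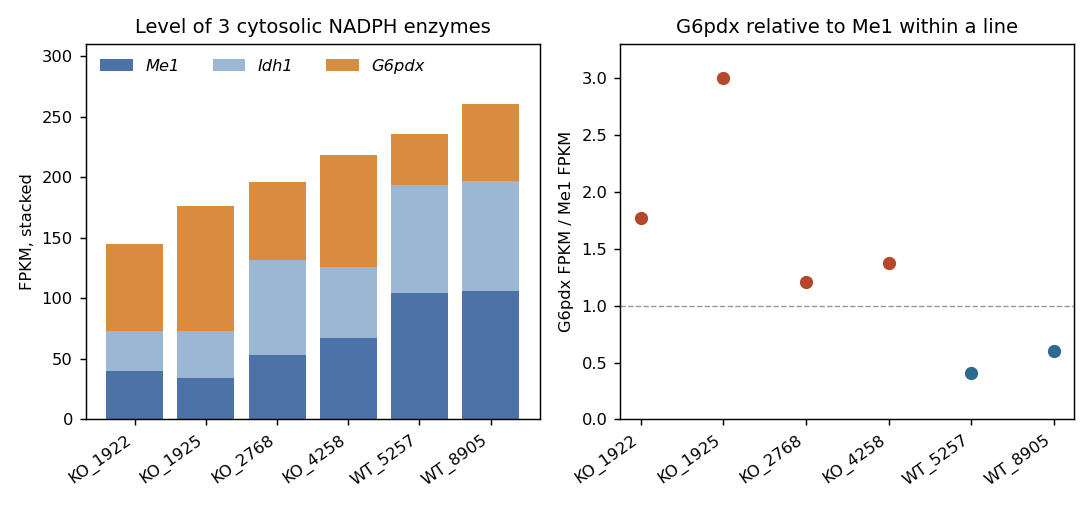
Left, FPKM of Me1, Idh1 and G6pdx stacked for each line; right, the FPKM of G6pdx divided by that of Me1 in each line, with knockout lines in red, wild-type lines in blue and a dashed line at 1. The knockout lines lie between 1.21 and 2.999 and the wild-type lines at 0.41 and 0.60. The genes were chosen with their values known, which favours such a separation.

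Among the genes listed, *G6pdx*, *Me1* and *Idh1* were abundant and *Mpc2* was intermediate. Their mean FPKM over the 6 lines was 73.0, 67.7 and 64.6, higher than 92.6%, 92.0% and 91.7% of the 4461 genes, while that of *Mpc2* was 16.3, higher than 68.2%. Read counts per library were between 653 and 6017 for these genes, so the counting error was small beside the spread between lines. Library totals were 18247312 to 25386785 reads in knockout and 15199378 to 17372643 reads in wild-type lines, and the part of this depth difference in the results was not tested. *G6pdx* shares 418 exonic bases with *Ikbkg* on the other strand, and 199 of its 3079 runs of 50 transcript bases occur in *G6pd2*. *Me1* shares 804 of its 3814 runs with the processed pseudogene *Gm7049* and 659 with the noncoding *Gm48795*. Whether the counting used strand, and how reads with several positions were treated, is not given in the sources used here, so the levels of *G6pdx* and *Me1* may hold or lack some reads of these partners.

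The other genes of the NADPH production list showed values on both sides of 0. The list also takes in genes such as *Mthfd1l*, *Shmt1* and *Nadk2*, whose enzymes do not form NADPH themselves. Of 22 genes in the list of NADPH production, 10 were in the table, and none passed at an adjusted p under 0.05. At an unadjusted edgeR p under 0.05, 3 of the 10 were called higher and 2 lower, against 21.5% and 29% of all genes tested, so the list did not stand apart. Their median log2 difference was 0.69, against 0.49 over all genes tested. *Glud1*, glutamate dehydrogenase of the mitochondrial matrix, had 49.6 ± 8.07 FPKM (SD, n = 4 lines) in knockout and 23.5 ± 11.6 FPKM (SD, n = 2 lines) in wild-type lines (log2 difference 1.02, edgeR adjusted p = 0.085). *Mthfd1l*, which makes formate in mitochondria, had 16.2 ± 5.76 and 7.35 ± 2.50 FPKM, and the NAD kinase *Nadk2* of mitochondria had 5.10 ± 0.947 and 2.82 ± 0.243 FPKM. *Me3*, a mitochondrial malic enzyme, was scarce, at 1.17 to 2.09 FPKM in knockout and 0.082 and 0.722 FPKM in wild-type lines. It lay above both wild-type lines in all 4 knockout lines, as did 35.1% of all genes tested.

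Of the folate enzymes of the list, none passed the test and the values lay on both sides. *Shmt1*, cytosolic serine hydroxymethyltransferase, had 10.8 ± 2.42 FPKM in knockout and 17.9 ± 5.99 FPKM in wild-type lines. All 4 knockout lines were below both wild-type lines, which was true of 38.2% of all genes tested. *Mthfd1*, whose dehydrogenase yields NADPH, had 22.8 ± 9.37 and 49.2 ± 36.6 FPKM, the wild-type mean resting on 75.1 in WT_5257 and 23.4 in WT_8905, and 2 of the 4 knockout lines were below both. *Aldh1l1*, which oxidizes formyl-tetrahydrofolate with formation of NADPH, was higher in 3 of the 4 knockout lines, with 1546 reads and 14.6 FPKM in KO_2768, 0.440 and 1.03 FPKM in KO_1922 and KO_1925, no read in KO_4258 and 5 reads over both wild-type lines. *G6pdx* was the only one of 15 pentose phosphate pathway genes in the table, and the rest of that pathway was not analysed here.

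Around *Mpc2*, 10 of 29 genes of pyruvate use and entry were in the table, 1 of them raised, 1 lowered and 8 short of the threshold. Over all genes tested, 1.66% were raised and 3.47% lowered. At an unadjusted edgeR p under 0.05, 1 of the 10 was called higher and 3 lower, against 21.5% and 29% of all genes tested. *Pdk3*, a kinase that inhibits pyruvate dehydrogenase, was raised, with 16.8 ± 1.94 FPKM (SD, n = 4 lines) against 4.74 ± 0.685 FPKM (SD, n = 2 lines), a log2 difference of 1.77 (edgeR adjusted p = 0.0357). *Slc16a7*, the monocarboxylate transporter Mct2, was lowered, with 0.624 ± 0.202 against 8.42 ± 3.39 FPKM, a log2 difference of -3.81 (edgeR adjusted p = 0.028). *Pdk2*, a kinase with the same target as *Pdk3*, had 9.23 ± 4.96 and 25.0 ± 5.62 FPKM (log2 difference -1.49, edgeR adjusted p = 0.0891) and did not pass. *Pdk4* had no read in any wild-type library and 186, 157, 2239 and 1 reads in KO_1922, KO_1925, KO_2768 and KO_4258. Taking 3 reads over the wild-type group as the floor, the mean of the knockout lines was at least 531-fold higher, a value carried by KO_2768. The pyruvate dehydrogenase phosphatase *Pdp1* had 4.56 ± 2.26 and 2.27 ± 1.05 FPKM, and the monocarboxylate transporter gene *Slc16a8* had 0.896 ± 0.483 and 2.27 ± 0.847 FPKM. The lactate exporter *Slc16a3* had 0.031 to 3.15 FPKM in knockout and 0.085 and 0.021 FPKM in wild-type lines. The median of the list was 0.16, also with *Pdk4* at its bound, and 5 of its 10 genes were positive. Neither call held without KO_1922, KO_1925 or WT_5257, where no gene of the table passed, and *Pdk3* was lost without WT_8905 too.

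Of 30 genes of the citrate, isocitrate and malate shuttle, 5 were in the table and none passed the adjusted threshold. *Idh3a*, a subunit of the NAD-linked isocitrate dehydrogenase of the matrix, had 68.8 ± 15.5 FPKM in knockout and 108 ± 33.8 FPKM in wild-type lines, and *Dlst*, of the 2-oxoglutarate dehydrogenase complex, had 42.7 ± 10.3 and 68.0 ± 27.8 FPKM. The aspartate-glutamate carriers of the malate-aspartate shuttle stood on opposite sides, *Slc25a12* with 10.5 ± 1.89 and 16.9 ± 5.75 FPKM and *Slc25a13* with 16.8 ± 1.45 and 12.9 ± 3.44 FPKM. *Idh1*, *Idh3a* and *Slc25a12* lay below both wild-type lines in all 4 knockout lines, as did 38.2% of all genes tested. The median of the list was -0.74, against 0.49 over all genes tested. At an unadjusted edgeR p under 0.05, 1 of the 5 was called lower, against 29% of all genes tested.

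Fatty acid synthesis, to which NADPH from these enzymes can go, had 10 of 26 genes in the table, all 10 with negative values and 2 of them lowered at an adjusted p under 0.05. Over all genes tested, 58.6% were positive and 3.47% were lowered at that threshold. The median log2 difference of the list was -1.27, against 0.49 for all genes tested. In all 4 knockout lines 9 of the 10 lay below both wild-type lines, against 38.2% of all genes tested. At an unadjusted edgeR p under 0.05, 9 of the 10 were called lower, against 29% of all genes tested. The genes listed had already been called different between the genotypes. *Scd1*, a stearoyl-CoA desaturase, had 119, 142, 140 and 102 FPKM in KO_1922, KO_1925, KO_2768 and KO_4258 against 1989 and 2875 FPKM in WT_5257 and WT_8905 (log2 difference -4.34, edgeR adjusted p = 0.0204). *Srebf1*, the transcription factor of lipogenic genes, had 68.1 ± 18.1 FPKM (SD, n = 4 lines) and 193 ± 41.9 FPKM (SD, n = 2 lines), a log2 difference of -1.56 (edgeR adjusted p = 0.0479). Neither of these genes encodes the NADPH-using fatty acid synthase, which was not analysed here. *Acaca*, acetyl-CoA carboxylase, had 21.6 ± 5.40 and 45.5 ± 2.10 FPKM (edgeR adjusted p = 0.0505), and the acetate-using *Acss2* had 2.82 ± 1.79 and 10.5 ± 0.107 FPKM (edgeR adjusted p = 0.0669). The elongation genes *Elovl5*, *Elovl6* and *Hsd17b12* had log2 differences of -0.92, -1.36 and -1.08, and the desaturases *Scd2*, *Scd3* and *Fads2* had -0.89, -1.45 and -1.18. For *Fads2*, KO_1922 and KO_1925, with 49.9 and 64.8 FPKM, lay on either side of the 54.7 FPKM of WT_5257. When 1 line was left out, the list had from 0 genes lowered without KO_1922, KO_1925 or WT_5257 to 4 without KO_2768, and *Srebf1* was also lost without WT_8905. Over the other settings the list had 0 lowered with tests counted over the RefSeq genes. It had 1 lowered with library totals without TMM and 1 with the authors' size factors. *Srebf1* was not called in any of these settings. The list had 4 lowered with no filter, 5 with median-of-ratios factors, 9 with DESeq2 on line sums and 10 with limma-voom and the line as random effect.

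**Figure D4:**
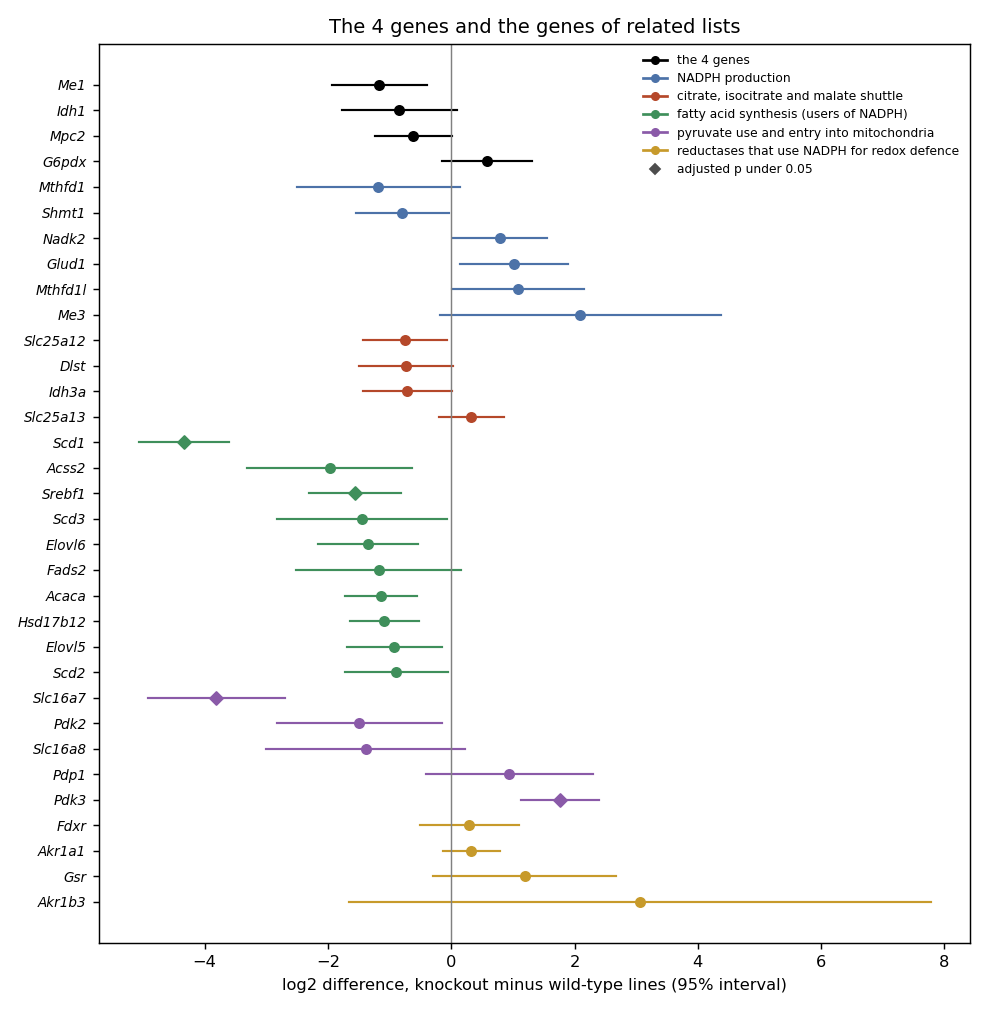
log2 difference between knockout and wild-type lines with its 95% interval (x axis) for the 4 genes and 29 genes of the related lists (y axis), coloured by list, with diamonds where the adjusted p was under 0.05. All 10 genes of fatty acid synthesis lie left of 0, with Scd1 at -4.34, while the genes of the NADPH production list lie on both sides. The 5 genes with a mean under 0.1 FPKM in wild-type lines are not drawn.

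Reductases that spend NADPH on redox defence had 6 of 18 genes in the table, all 6 with positive values and none past the adjusted threshold. The median log2 difference was 2.13, in a list where *Nqo1* and *Akr1b8* had only 2 and 4 reads over the wild-type lines. It was 1.14 with limma-voom. Over all genes tested the median was 0.49 and 58.6% were positive. At an unadjusted edgeR p under 0.05, 1 of the 6 was called higher, against 21.5% of all genes. In all 4 knockout lines 3 of the 6 lay above both wild-type lines, against 35.1% of all genes, so the list did not stand apart by these counts. *Gsr*, glutathione reductase, had 75.9, 100, 20.7 and 66.3 FPKM in KO_1922, KO_1925, KO_2768 and KO_4258, and 29.7 and 25.3 FPKM in WT_5257 and WT_8905. It was highest in KO_1925, as *G6pdx* was, and in KO_2768 it lay below both wild-type lines. The quinone reductase *Nqo1* had 64, 72, 99 and 6 reads in the 4 lines in the same order and 2 reads over the wild-type lines. The aldose reductase *Akr1b3* had 28.7, 40.7 and 51.1 FPKM in KO_1922, KO_1925 and KO_2768, and 0.075 FPKM in KO_4258, below the 3.43 and 3.39 FPKM of the wild-type lines. Its relative *Akr1b8* had 31.4 FPKM in KO_2768 and 0.132 FPKM in KO_4258. *Akr1a1*, an aldehyde reductase, and *Fdxr*, ferredoxin reductase of mitochondria, had the smallest log2 differences of the list, 0.33 and 0.29.

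Markers of other cell types differed between individual lines. Of 51 markers in 6 lists, 9 were in the table. The fibroblast markers *Col1a2*, *Pdgfrb*, *Dcn* and *Thy1*, 4 of a list of 10, summed to 744 FPKM in KO_2768, nearly all of it *Dcn* at 737, to 2.04 and 1.00 FPKM in KO_1922 and KO_1925, and to at most 0.017 FPKM in KO_4258 and the wild-type lines. The macrophage receptor *Csf1r*, 1 of a list of 8, had 64.5 FPKM in KO_4258, 3.74 FPKM in KO_1925 and under 1 FPKM elsewhere. *Elf5*, a luminal transcription factor and the 1 gene of 13 luminal markers in the table, had 5.24 to 44.7 FPKM in knockout and 88.7 and 93.8 FPKM in wild-type lines. The basal markers *Krt17* and *Oxtr*, 2 of 7, summed to 0.744 to 7.75 FPKM and to 0.618 and 11.8 FPKM, the adipocyte marker *Fabp4*, 1 of 7, had 0.720 to 3.40 FPKM and 0.190 FPKM or less, and none of 6 endothelial markers was in the table. KO_2768, the line rich in *Dcn*, had the highest *Idh1* and the lowest *G6pdx* of the knockout lines, and KO_4258, the line with *Csf1r*, had the highest *Me1* and *Mpc2*. Without KO_2768 the log2 differences of *Me1*, *Idh1*, *G6pdx* and *Mpc2* were -1.27, -1.17, 0.61 and -0.62, and without KO_4258 they were -1.38, -0.92, 0.50 and -0.79. Without KO_4258 *Me1* passed the test (edgeR adjusted p = 0.0362), in a fit where 8.24% of genes were lowered and 6.99% raised, more than with all lines. In bulk RNA, fewer cells of a type and less RNA per cell cannot be told apart, and the part of these marker differences in the levels of the 4 genes was not tested.

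The genes whose pattern over the 6 lines was most like that of each member were found by Pearson's r of log2 CPM, as a description over 6 points that share libraries and genotype. *Gjb2* (r = 0.998), *Stat5b* (0.996) and *BC030307* (0.992) were closest to *Me1*. *Pccb*, of propionyl-CoA carboxylase (0.992), *Bambi* (0.985) and *Mpp7* (0.985) were closest to *Idh1*. *Mycbpap* (0.991), *Iba57* (0.989) and *Btn1a1* (0.987) were closest to *G6pdx*, and *Tug1* (0.994), *Tecpr1* (0.993) and *Gm10221* (0.992) to *Mpc2*. At a cut of r over 0.95, 92, 23, 26 and 66 other genes were found for *Me1*, *Idh1*, *G6pdx* and *Mpc2*, among the 4268 genes tested. All of these had been called different between the genotypes by the authors, which by itself raises r for genes on the same side of 0. *Gjb2* had 0.844 to 5.02 FPKM in knockout and 13.2 and 12.3 FPKM in wild-type lines, and *Stat5b*, a transcription factor of the prolactin pathway, had 11.4 to 17.3 and 22.08 and 21.97 FPKM. *Btn1a1*, butyrophilin of the milk fat globule, had 15.0 and 12.7 FPKM in KO_1925 and KO_4258, where *G6pdx* was highest, and 0.422 FPKM in WT_5257, where it was lowest. Between members, r was 0.892 for *Me1* and *Idh1*, 0.905 for *Me1* and *Mpc2*, 0.682 for *Idh1* and *Mpc2*, and -0.578, -0.569 and -0.504 for *G6pdx* with *Me1*, *Idh1* and *Mpc2*. The signs go with the side of 0 on which each member lay, so they are no separate result.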

How the data were processed

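RNA-seq of 11 libraries from 6 tumor-derived lines was used. Per the methods, the authors mapped reads with STAR to mm10, counted them with HTSeq and tested the genotypes with a DESeq2-type model; the submitters' processing notes also name Trimmomatic, edgeR and limma. The deposited table holds, for 4461 genes that the authors called, read counts, normalized values (a signal, the count over a size factor) and FPKM. It also holds the authors' fold changes and p-values, which were not used. Library totals were recovered from counts, gene length and FPKM, since the listed genes carry only part of the reads.

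Counts of duplicate libraries were summed by line, filtered with filterByExpr, scaled by TMM and tested two-sided with edgeR 4.0.16 (glmQLFit and glmQLFTest) in R 4.3.3, with Benjamini-Hochberg adjustment over 4268 genes and a threshold of 0.05. Intervals are 95%, from the standard error and the fit's degrees of freedom. Differences among lines were fitted to the 11 libraries with the line as factor. Alternatives used DESeq2 1.42.0, limma 3.58.1, other scalings, filters, numbers of tests and subsets of libraries. The scripts were tested on simulated data. Duplicates correlated at r = 0.994 to 0.996 and differed by more than sampling noise. The members and gene lists were chosen with earlier results of these data known. Genes named are the 4 members, every gene of the lists that was in the table, marker genes, and for each member the 3 genes most correlated with it (log2 CPM, prior count 2). Coordinates are GRCm38.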

Additional observations from a re-analysis of the deposited data

Results flagged for a closer look

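In 50 genes examined, the 4 members, the genes of the lists and the genes most like the members, 6 had a knockout line whose distance to the nearest of the other lines took up a share of the whole range, on the log2 scale, above the 95% critical value of Dixon for 4 values. For independent values from a normal distribution, chance gives this in about 1 of 20 genes. The genes here share the same lines, and the share over all genes tested was not computed, so the 6 are not read as an excess. *Mpc2* was set apart by KO_4258 (0.832 of the range), with 18.3 FPKM against 12.2 to 13.5 FPKM in the other knockout lines. *Me3* was set apart by KO_1925 (0.882), with 1.17 FPKM against 1.94 to 2.09. *Idh3a* was set apart by KO_2768 (0.882), with 46.3 FPKM against 71.2 to 80.1. *Acaca* was set apart by KO_1925 (0.842), with 29.5 FPKM against 17.4 to 20.3. *Akr1b3* was set apart by KO_4258 (0.903), with 0.075 FPKM against 28.7 to 51.1. *Tecpr1*, one of the genes most like *Mpc2*, was set apart by KO_4258 (0.868), with 46.3 FPKM against 10.4 to 12.6. *Tecpr1* had been chosen for its likeness to *Mpc2* over the same lines, so the flags of this pair are not separate instances.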

How the results depend on the processing

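The members were among genes that the authors had called different, and every setting reuses the same libraries. A kept direction is therefore no separate evidence. All 17 alternatives kept the direction of each member. The log2 differences were -1.38 to -1.02 for *Me1*, -1.17 to -0.70 for *Idh1*, 0.21 to 0.92 for *G6pdx* and -0.79 to -0.52 for *Mpc2* over these alternatives, with the extremes from leaving out 1 line. *Me1* passed the adjusted threshold in 5 of them, *Idh1* in 3, and *G6pdx* and *Mpc2* in 2 each. With every library a separate sample and no replicate block, the differences were -1.23, -0.997, 0.57 and -0.63 in that order, with 1873 genes raised and 1680 lowered. With the duplicate number as a replicate block they were -1.23, -1.02, 0.57 and -0.63, with 1706 raised and 1680 lowered; the duplicate numbers did not pair libraries across lines (correlations of duplicate differences -0.05 to 0.067 over 10 pairs of lines). limma-voom with the line as random effect gave -1.27 for *Me1* and -0.98 for *Idh1*, both past the threshold, with 305 genes raised and 919 lowered. DESeq2 gave -1.29 for *Me1*, past the threshold, with 948 raised and 1429 lowered. Against 71 raised and 148 lowered in the fit on lines, median-of-ratios factors lowered 301, library totals without TMM 93, no filter 252, and the authors' size factors, chosen after seeing the data, 82. With tests counted over the reference genes 0 were raised and 0 lowered. Leaving out 1 line gave 0 to 294 raised and 0 to 347 lowered. The count was 0 without KO_1922, KO_1925 or WT_5257, where 533, 613 and 301 genes were higher and 953, 833 and 712 lower at an unadjusted edgeR p under 0.05. The share of raised among called genes, 32.4%, ranged from 24.9% with limma-voom, 25.9% with median-of-ratios factors, 26.1% with duplicate 2 and 26.3% with no filter to 45.9% without KO_4258, 46% without WT_8905, 50.4% with the block and 52.7% with separate libraries. Median-of-ratios factors moved the median of all genes by -0.125. Differences among lines kept their calls in all 16 comparisons. The cause of these changes was not tested.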

Other observations

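Within 500000 bases of the members, the table held 1 gene near *Me1*, 3 near *Idh1*, 10 near *G6pdx* and 5 near *Mpc2*. None of these 19 neighbours passed the adjusted threshold, at which 1.66% of all genes tested were raised and 3.47% lowered. Around *G6pdx* on chromosome X, 5 neighbours had positive and 5 negative log2 differences, among them *Emd*, which encodes emerin, at 0.57, and *Atp6ap1*, of the vacuolar proton pump, at -0.58. Around *Mpc2*, 4 of 5 neighbours had positive differences, on the other side of 0 from *Mpc2*. Of all genes tested, 58.6% were positive, so these few neighbours did not stand apart. The gene nearest *Me1*, *Dopey1*, had -0.70, and around *Idh1* the Wnt receptor *Fzd5* had -1.40 and *Plekhm3* had 0.95.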
